A study of Homo sapiens with 2 samples.

Results

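Lysine-specific demethylase 1 (LSD1, encoded by KDM1A), its paralog KDM1B and the genes of the CoREST complex and its partners were examined in PLC-8024 cells, a human HCC cell line, with or without overexpression of GDF1. The genes were chosen by symbol from the deposited expression tables. They were KDM1A, KDM1B, RCOR1, RCOR2, RCOR3, PHF21A, HMG20B, GFI1 and ZMYM2, and all 9 were found among the 58174 genes listed. KDM1A lies on chromosome 1 of GRCh37 (hg19), plus strand, from 23345936 to 23410182. On the same strand lie KDM1B (chromosome 6, 18155560 to 18224085), RCOR1 (chromosome 14, 103058986 to 103196898), RCOR3 (chromosome 1, 211431719 to 211489727), HMG20B (chromosome 19, 3572775 to 3579086) and ZMYM2 (chromosome 13, 20532817 to 20665968). RCOR2 (chromosome 11, 63678702 to 63684636), PHF21A (chromosome 11, 45950870 to 46143005) and GFI1 (chromosome 1, 92938600 to 92952482) lie on the minus strand. All are annotated as protein coding.

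LSD1 removes methyl groups from mono- and dimethylated lysine 4 of histone H3, a mark of active promoters and enhancers. On nucleosomes it works together with a CoREST protein, which holds it against the histone tail, and with the histone deacetylases HDAC1 and HDAC2. The complex is brought to its sites by DNA-binding repressors, among them REST at neuronal genes and the SNAG-domain factors of the GFI1 and SNAI families. In the liver as in other tissues it is best known for keeping genes of other lineages silent. The RNA-seq comparison bears on the question whether the genes of this complex had other mRNA levels when GDF1, a ligand of the TGF-β superfamily, was overexpressed.

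One condition was PLC-8024-CTR (genotype Control) and the other PLC-8024-GDF1 (genotype GDF1-overexpression), with 1 library each, named below the control and the GDF1 library. By the study's methods human GDF1 was brought into the cells by viral transduction and stable cells were selected with puromycin. The control cells received a control vector. Whether the lines were pools or clones was not given in the sources used here. Levels are in TPM, a transcript abundance that is corrected for transcript length and for the library total, so genes can be set side by side. TPM keeps no record of sequencing depth, and no counting error could be given. A change is the GDF1 library over the control, on the log2(TPM + 1) scale, and "rose" or "fell" is used only past 2-fold on that scale. With 1 library per condition no difference had a replicate check and no p-value was computed. Fewer cells of a type and less RNA per cell cannot be told apart in such bulk samples.

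Of the 14929 genes that reached 1 TPM in a library, 2154 passed 2-fold (14.4%), of which 720 rose (4.82%) and 1434 fell (9.61%), and the median log2 change was -0.20. GDF1 itself was listed at 2.1 TPM in the control and 4.64 TPM in the GDF1 library, and CERS1, annotated over the same stretch and strand of chromosome 19, at 13.3 and 9612 TPM, and reads in the part they share cannot be told apart. All 9 liver markers examined had at least 1 TPM, and 5 of the 9 were past 2-fold lower. Their summed level was 8527 TPM in the control and 6168 TPM in the GDF1 library, with SERPINA1 (5308 and 2915 TPM) as its largest part. KRT8 (1424 and 1777 TPM) and KRT18 (1005 and 1224 TPM) were higher in the GDF1 library, and the other 7 were lower. Among the 5 was AFP (31.4 and 9.75 TPM), which the study counts as a progenitor marker. Of 8 markers of leukocytes, fibroblasts and endothelium, 5 were under 1 TPM in both libraries, PTPRC and VWF being listed at 0, and the sum of the 8 was 60.1 and 38.0 TPM. Most of that sum came from CD68 (33.1 and 13.2 TPM) and PECAM1 (23.2 and 22.2 TPM). The part of these shifts in the levels below was not tested.

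In the study, SMAD2/3 bound the promoter of KDM1A in ChIP-PCR with either recombinant GDF1 or TGF-β1. The activity of that promoter in a reporter assay was lower with GDF1 and higher with TGF-β1. The sequences upstream of 3 of the genes are therefore shown, among them KDM1A. KDM1B is its paralog and ZMYM2 had the largest change of the 9. Each is the 250 bases before a RefSeq transcription start, placed on GRCh37 by an exact and single match of the RefSeq (GRCh38.p14) promoter entry, and printed 5′ to 3′ on the plus strand, on which all 3 genes lie. Capitals mark the SMAD-binding element CAGAC, searched on both strands. The windows are chr1:23345711-23345960 for KDM1A, chr6:18155403-18155652 for KDM1B and chr13:20532617-20532866 for the first listed start of ZMYM2. All 3 end inside the gene spans given above, because those spans are from GENCODE and begin before these RefSeq starts.
KDM1A: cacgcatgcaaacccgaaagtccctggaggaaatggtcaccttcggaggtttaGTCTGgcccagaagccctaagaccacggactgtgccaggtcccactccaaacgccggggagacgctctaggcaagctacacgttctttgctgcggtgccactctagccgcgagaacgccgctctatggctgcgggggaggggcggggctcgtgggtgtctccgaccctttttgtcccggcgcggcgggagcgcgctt
KDM1B: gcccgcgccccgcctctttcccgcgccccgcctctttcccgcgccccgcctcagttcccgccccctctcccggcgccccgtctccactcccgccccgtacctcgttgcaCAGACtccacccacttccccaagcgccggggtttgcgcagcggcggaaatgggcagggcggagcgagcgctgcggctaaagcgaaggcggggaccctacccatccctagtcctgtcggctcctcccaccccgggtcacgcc
ZMYM2: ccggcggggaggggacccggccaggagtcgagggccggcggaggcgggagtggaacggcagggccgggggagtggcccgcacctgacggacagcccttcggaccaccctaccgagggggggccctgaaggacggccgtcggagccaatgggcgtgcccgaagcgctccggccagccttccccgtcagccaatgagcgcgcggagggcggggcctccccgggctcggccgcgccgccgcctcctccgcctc
The KDM1A window held the element once, at position 54 from the 5′ end and on the reverse strand, and the KDM1B window once, at position 110. The ZMYM2 window held no CAGAC. Of all 35116 promoter windows of this length 38.0% held it, and of the 15 windows of 8 of the 9 genes, 5 did. The GC-rich SMAD motif GGCGC, on either strand, was in 12 of the 15 windows and in 44.5% of all. GGCCG, a further such motif that can overlap it, was in 9 of the 15 and in 44.7% of all. Some genes gave several of the 15 windows, and these shares were not matched for the GC content of the windows. The ZMYM2 window held GGCGC once and GGCCG 8 times, and the KDM1A window held GGCGC once and no GGCCG. The KDM1A window was 64% G and C, with 23 CpG dinucleotides, and the ZMYM2 window 78.4%, with 32, against medians of 58% and 11 over all windows. These matches describe letters and not bound sites.

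KDM1A, the H3K4 demethylase, was listed at 49.9 TPM in the control and at 45.3 TPM in the GDF1 library. The GDF1 library thus held 90.7% of the control level, a log2 change of -0.14. This change lay at percentile 54.2 of the 14929 genes, slightly above their median. Among the 3211 genes with a mean level between 20 and 100 TPM, the middle 90% of changes ran from -1.21 to 0.88, so KDM1A sat well inside the spread of genes expressed like it. With TPM rescaled to a median log2 ratio of 0, KDM1A was at 0.07. With the GC trend removed it was at 0.14, so its direction depended on the scaling. In level it stood at percentile 83.6 of these genes in the control and 83.4 in the GDF1 library. The study itself reported significantly lower LSD1 mRNA by qPCR in PLC-8024 cells with GDF1, and lower LSD1 protein by western blot. Those assays used repeated experiments and other measures than the TPM of 1 library per condition.

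KDM1B (LSD2) demethylates the same lysine, mainly within the bodies of transcribed genes and without CoREST. It was listed at 1.54 TPM in the control and 1.11 TPM in the GDF1 library, a log2 change of -0.27 that turned to 0.08 with the GC trend removed. KDM1A made up 97.0% of the summed TPM of both demethylases in the control and 97.6% in the GDF1 library. KDM1A was therefore the predominant transcript of the pair in each library.

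The 3 CoREST scaffold genes did not share a direction. RCOR3, the most abundant of them here, was listed at 10.4 TPM in the control and 6.44 TPM in the GDF1 library, a log2 change of -0.61. RCOR1, which encodes the founding CoREST protein, was listed at 4.40 and 2.79 TPM, a log2 change of -0.51. These were 62.1% and 63.4% of the control level. RCOR2, known mainly from stem cells and the developing brain, was listed at 0.79 TPM in the control and 1.3 TPM in the GDF1 library, a log2 change of 0.36, and had at least 1 TPM only in the latter. None of the 3 was past 2-fold. Each kept its direction with rescaled TPM, with the GC trend removed and without GDF1, CERS1 and mitochondrial genes in the total. A smaller or absent pseudocount cannot turn a direction.

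Added up, the scaffolds gave 15.6 TPM in the control and 10.5 TPM in the GDF1 library, a log2 change of -0.52. RCOR3 held 66.7% of this sum in the control and 61.2% in the GDF1 library, RCOR1 28.3% and 26.5%, and RCOR2 5.09% and 12.4%. A ratio within a library does not depend on how that library is scaled. The scaffolds stood at 0.31 per KDM1A transcript in the control and 0.23 in the GDF1 library. KDM1A transcripts thus outnumbered those of the scaffolds 3.21 to 1 in the control and 4.29 to 1 with GDF1. A count of transcripts is not a count of proteins.

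HMG20B (BRAF35), an HMG-box subunit of the complex, was the most abundant of the 9 genes. It was listed at 157.4 TPM in the control and 140.01 TPM in the GDF1 library, or 88.9% of the control level, a log2 change of -0.17. Its ratio to KDM1A was 3.15 and 3.09. MFSD12 overlaps HMG20B on the opposite strand and was listed at 83.97 and 86.8 TPM, and as a strand-specific count is not stated, reads in the shared part cannot be told apart.

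PHF21A (BHC80) reads H3 tails that are unmethylated at lysine 4, the product of LSD1. It was listed at 9.86 TPM in the control and 8.95 TPM in the GDF1 library, a log2 change of -0.13. Its ratio to KDM1A was 0.20 in each library, so both genes kept the same proportion. PHF21B, its paralog, was listed at 0.12 TPM in both libraries. With TPM rescaled to a median log2 ratio of 0, PHF21A was at 0.06 and HMG20B at 0.04, so these changes too had no firm direction.

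ZMYM2 encodes a zinc-finger protein that joins the complex and binds SUMO. It was the only one of the 9 genes past 2-fold. ZMYM2 was listed at 3.55 TPM in the control and 1.14 TPM in the GDF1 library, or 32.2% of the control level, and the log2 change was -1.09. This lay at percentile 7.74 of all tested genes. Among the 3013 genes with a mean level of 2 to 5 TPM, 12.2% fell, and the lowest 5% of changes began at -1.45. The call was not kept with TPM rescaled to a median log2 ratio of 0 (-0.97) or with the GC trend removed (-0.65).

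GFI1, a SNAG-domain repressor of blood cell development that tethers LSD1 to DNA, was near the limit of what these values can show. It was listed at 1.04 TPM in the control and 0.49 TPM in the GDF1 library, a log2 change of -0.45, and had at least 1 TPM only in the control. The plain TPM ratio gave -1.08, past 2-fold, because no pseudocount then holds back genes of low level. GFI1B, its paralog, was listed at 0 in the control and at 0.02 TPM in the GDF1 library.

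**Figure D1:**
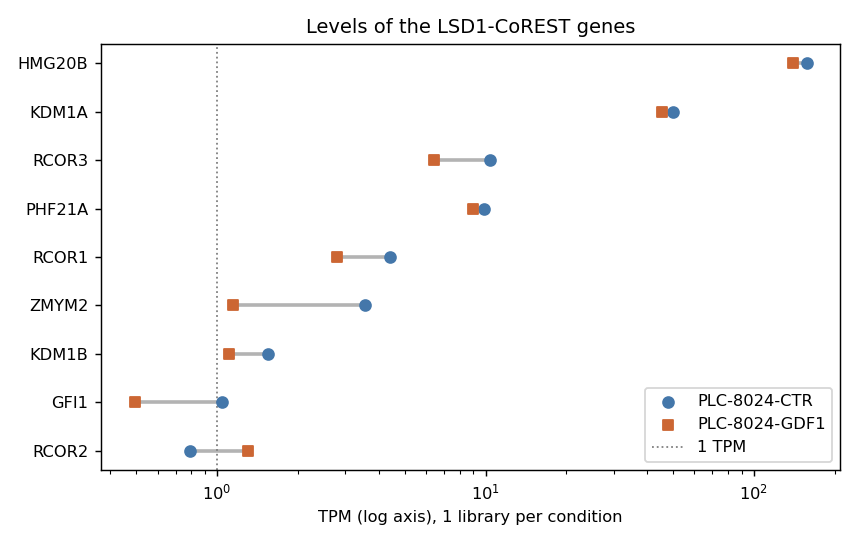
TPM of each LSD1-CoREST gene on a log axis, with 1 library of the control (circles) and 1 of GDF1 (squares) joined by a line and 1 TPM dotted. HMG20B and KDM1A lie highest in both libraries with short lines, ZMYM2 (3.55 and 1.14 TPM) and GFI1 (1.04 and 0.49 TPM) have the longest ones, and RCOR2 alone is higher in the GDF1 library.

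In the order of levels, HMG20B and KDM1A were the highest in both libraries. RCOR3 and PHF21A changed places behind them and RCOR1 followed in both, while RCOR2 was last in the control and came next after RCOR1 in the GDF1 library. Neighbours in this order cannot be separated by a spread, because each level rests on 1 library. By ratio RCOR3 and PHF21A lay closest in the control, at 10.4 and 9.86 TPM.

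Taken as a group, 8 of the 9 genes were lower in the GDF1 library and 1 was higher. Over all tested genes 63.3% were lower, and against the median of all genes 5 of the 9 lay below and 4 above. The median log2 change of the 9 was -0.27, beside -0.20 over all genes. The 1 gene that fell was 11.1% of the 9, beside 9.61% of all tested genes, and none rose, beside 4.82%. These shares do not set the 9 genes apart from all genes.

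The same counts were set beside the share of all genes under other rules. With the plain ratio 2 of the 9 genes (GFI1 and ZMYM2) fell, beside 16.1% of all genes, and none rose, beside 7.88%. With a pseudocount of 0.1 ZMYM2 alone fell, beside 15.5%, and none rose, beside 7.82%. With TPM rescaled to a median log2 ratio of 0 none of the 9 fell or rose, beside 6.75% and 7.01% of all genes. The split of 720 rising and 1434 falling genes thus became 1062 and 1022. With the GC trend removed again none did, beside 6.05% and 6.29%, and the split was 921 and 886. Without GDF1, CERS1 and mitochondrial genes in the total, ZMYM2 fell, beside 10.4%, and none rose, beside 5.22%. Of the 4 genes of at least 5 TPM none fell, beside 10.8%, and none rose, beside 4.89%.

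**Figure D2:**
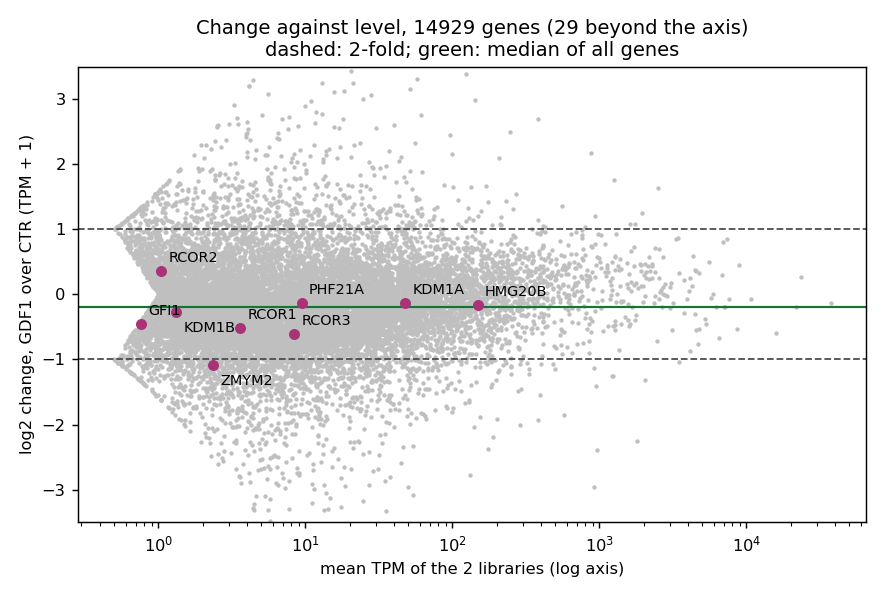
Log2 change (vertical) against mean TPM of both libraries (log axis) for 14929 genes in grey and the LSD1-CoREST genes in purple, with 2-fold dashed and the median of all genes (-0.20) in green; 29 genes lie beyond the axis. The 9 genes lie within the cloud of genes of like level, on both sides of the median, and only ZMYM2 passes the lower dashed line.

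The changes were then computed in other ways. The value of KDM1A ran from -0.15 to 0.14 over all ways, that of PHF21A from -0.14 to 0.06 and that of HMG20B from -0.36 to 0.04. RCOR1 (-0.66 to -0.23), RCOR3 (-0.69 to -0.18), GFI1 (-1.08 to -0.26) and ZMYM2 (-1.63 to -0.65) were lower in the GDF1 library each time, and RCOR2 (0.22 to 0.72) was higher each time. The direction therefore did not depend on the computation for these 5 genes, and it did for KDM1A, KDM1B, PHF21A and HMG20B. A smaller or absent pseudocount cannot turn a direction, so only the rescaling, the GC trend and the other total could. Variation between libraries is not covered by these computations. GFI1 and RCOR2 reached 1 TPM only in the library where each was higher.

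**Figure D3:**
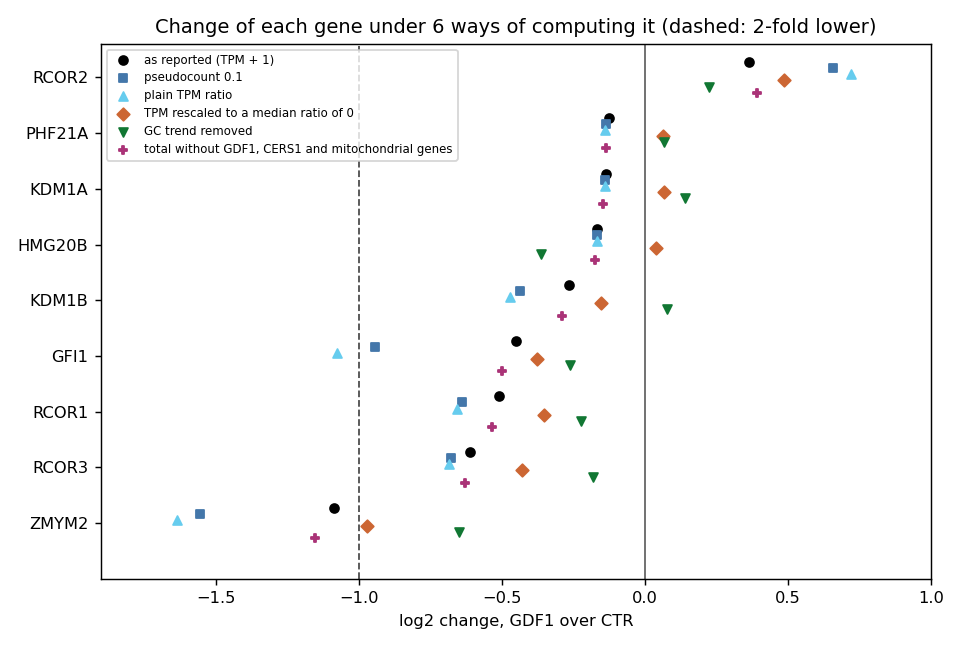
Log2 change of each LSD1-CoREST gene (horizontal) as reported and under 5 alternatives, each with its own symbol, with 0 as a solid line and 2-fold lower dashed. The points of KDM1A, KDM1B, PHF21A and HMG20B fall on both sides of 0, while those of RCOR1, RCOR3, GFI1 and ZMYM2 stay below it and those of RCOR2 above it.

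The choice of genes did not use the GC content of the longest transcript. ZMYM2 (36.3% GC) and RCOR3 (38.9%) had the lowest GC content and the lowest changes, while RCOR2 (64.2%), the only gene that was higher, was among the richest. HMG20B had the highest GC content (65.7%) and a change of -0.17, close to that of KDM1A (45.7%) at -0.14. Spearman's rho between GC content and log2 change was 0.73 over the 9 genes and 0.33 over 11792 protein-coding genes with at least 1 TPM, as a description across genes of the same pair of libraries. Protein-coding genes were cut into 10 equal bins by GC content. In the lowest bin, which holds ZMYM2, the median log2 change was -0.50 and 14.2% fell. In the highest bin, which holds RCOR2 and HMG20B, the median was 0.18 and 3.47% fell. KDM1A and RCOR1 (45.4%) share a bin whose median was -0.39, and there KDM1A lay above it at -0.14 and RCOR1 below it at -0.51. The part of GC content in these changes was not tested beyond removal of the trend.

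**Figure D4:**
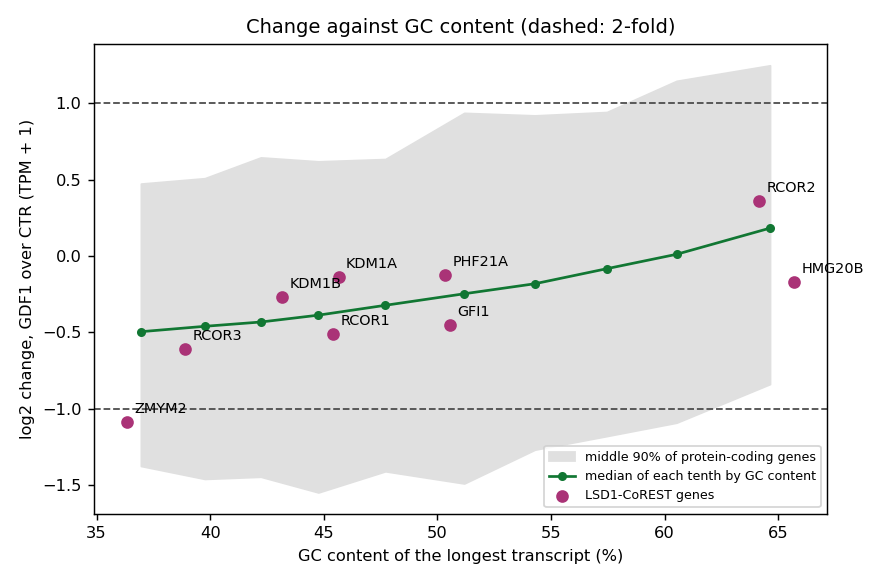
Log2 change against GC content of the longest transcript in percent, with the LSD1-CoREST genes in purple, the median of each of 10 bins of protein-coding genes in green and the middle 90% of them shaded. The green line climbs from -0.50 to 0.18, ZMYM2 and RCOR3 lie at its low end, and HMG20B (-0.17) lies below it at the high end.

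Further genes, in the complex and around it, were examined through 7 lists of 77 genes. The lists covered other subunits and paralogs, recruiters, NuRD subunits, LSD1 stability, enzymes of H3K4 methylation and neuronal targets. Of the 77 genes, 55 had at least 1 TPM in a library, 1 rose and 5 fell. Over all genes 4.82% rose and 9.61% fell, so the 5 that fell lie near the share of all genes. The counts of single lists below rest on few genes and are to be read beside the same shares. The first list held HDAC1 and HDAC2, paralogs of subunits, and the corepressors CTBP1, CTBP2, GSE1, ZMYM3 and ZNF217. Of its 9 genes 8 had at least 1 TPM, 1 fell (12.5%, beside 9.61% of all genes), none rose (beside 4.82%), and the median log2 change was -0.82, beside -0.20 over all genes.

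HDAC1, the deacetylase that shares the complex with LSD1, had the largest change of the genes in these lists with the pseudocount of 1. With a pseudocount of 0.1 or none, REST (-2.69 and -3.33) and RBBP5 (-2.10 and -2.28), both of low level, were among the genes that lay beyond it. With rescaled TPM the size of its change (-1.31) was below that of CHD4 (1.40), and likewise after removal of the GC trend (-1.27 and 1.36). It was listed at 86.9 TPM in the control and 29.9 TPM in the GDF1 library, or 34.4% of the control level, a log2 change of -1.51 at percentile 3.20 of all tested genes. It stayed past 2-fold with rescaled TPM, with the GC trend removed and without GDF1, CERS1 and mitochondrial genes in the total (-1.52). A smaller or absent pseudocount only enlarges a change and cannot lose a call. HDAC2 was listed at 15.5 and 8.27 TPM, a log2 change of -0.83. The sum of both was 102.4 TPM in the control and 38.1 TPM in the GDF1 library, and HDAC1 held 84.9% and 78.3% of it. In the control there were 2.05 transcripts of the pair per KDM1A transcript, and with GDF1 there were 0.84.

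CTBP1, a corepressor that binds to the same zinc-finger factors, was the most abundant gene of that list at 204.2 TPM in the control and 177.5 TPM in the GDF1 library, and its log2 change of -0.20 equalled the median of all genes. CTBP2 was listed at 23.3 and 11.2 TPM, a log2 change of -0.99 just short of 2-fold. ZNF217 (-0.82) lay close to HDAC2. With the pseudocount of 0.1, 3 of the 8 genes fell instead of 1, while the share of all genes that fell went from 9.61% to 15.5%.

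Of 16 DNA-binding factors that recruit LSD1 or CoREST, 6 had at least 1 TPM, 2 fell (beside 9.61% of all genes) and none rose (beside 4.82%), and their median log2 change was -0.68. SNAI1, a repressor of epithelial genes, was listed at 14.6 TPM in the control and 6.59 TPM in the GDF1 library, a log2 change of -1.04, and -0.86 with rescaled TPM. REST, the repressor of neuronal genes, was listed at 1.52 and 0.15 TPM, a log2 change of -1.13, and it passed the limit of 1 TPM through the control library alone. NOA1 overlaps REST on the opposite strand and was listed at 7.63 and 4.98 TPM. BCL6 had the highest mean level of the 6 and was listed at 16.1 and 9.26 TPM, a log2 change of -0.74. SNAI2 and PRDM1 were listed at 0 in both libraries.

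Of 20 neuronal genes known as targets of REST and CoREST, 10 had at least 1 TPM, and none rose or fell, beside 4.82% and 9.61% of all genes. With 10 genes a count of 0 says little at these shares. Their median log2 change was 0.01, beside -0.20 over all genes, and the changes ran from -0.86 to 0.31. Their GC content ran from 39.5% (SNAP25) to 70.5% (VGF). Over protein-coding genes the median change was -0.50 in the lowest GC bin and 0.18 in the highest. The part of GC content in the median of this list was not tested. SYP, a synaptic vesicle protein, was listed at 38.2 TPM in the control and 47.5 TPM in the GDF1 library, and CPLX1 at 38.6 and 38.7 TPM. With the GC trend removed SYP was at 0.47 and CPLX1 at -0.25. SNAP25 was listed at 7.35 and 3.61 TPM, with SNAP25-AS1 on the opposite strand at 4.80 and 8.25 TPM. REST itself was below 2-fold with the GC trend removed (-0.71).

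The NuRD complex, a remodelling and deacetylase complex, also contains HDAC1 and HDAC2 and can carry LSD1. All 12 of its other subunits had at least 1 TPM, 1 rose and 1 fell (8.33% each, beside 4.82% and 9.61% of all genes), and the median log2 change was -0.16. CHD4, the remodelling ATPase, was listed at 31.9 TPM in the control and 74.2 TPM in the GDF1 library, a log2 change of 1.19, and was the only gene of the 7 lists that rose. It kept this call with rescaled TPM (1.40), with the GC trend removed (1.36) and without GDF1, CERS1 and mitochondrial genes in the total (1.19). A smaller or absent pseudocount cannot lose a call. CDK2AP1 was listed at 11.8 and 4.84 TPM, a log2 change of -1.14 that was not past 2-fold after removal of the GC trend (-0.93) or after rescaling (-0.96), and C12orf65 overlaps it on the opposite strand at 6.14 and 4.86 TPM. MBD3 (193.2 and 227.3 TPM) and MTA1 (132.4 and 111.2 TPM) had the highest levels and were within 2-fold.

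Regulators of LSD1 protein stability and GLYR1, the cofactor of KDM1B, formed a list of 7 genes, none of which rose or fell (beside 4.82% and 9.61% of all genes), with a median of -0.56 beside -0.20 over all genes. JADE2, a ubiquitin ligase for LSD1, was listed at 10.9 TPM in the control and 11.1 TPM in the GDF1 library. USP28, a deubiquitinase for LSD1, was listed at 5.27 and 2.44 TPM, a log2 change of -0.87. USP22 was the most abundant at 43.3 and 36.96 TPM. USP28 and USP38 passed 2-fold lower with a pseudocount of 0.1 or none, rules under which 15.5% and 16.1% of all genes did so. USP38 (1.08 and 0.30 TPM) reached 1 TPM through the control alone.

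Among the tested genes for enzymes that write or erase the same mark, 1 fell and none rose, beside 9.61% and 4.82% of all genes. For so few genes these counts say little at these shares. KDM5A, KDM5B and KDM5C, which remove the trimethyl form, had log2 changes of -0.15, -0.69 and -0.39. Of 10 genes for H3K4 methyltransferases and their shared core, 9 had at least 1 TPM, and the median was -0.23. Of these, 1 fell (11.1%, beside 9.61% of all genes) and none rose (beside 4.82%). The gene that fell was RBBP5, a core subunit, listed at 2.86 TPM in the control and 0.59 TPM in the GDF1 library, a log2 change of -1.28. It reached 1 TPM through the control alone, and it was not past 2-fold with the GC trend removed (-0.95). DPY30 (113.2 and 96.5 TPM) and WDR5 (34.7 and 26.9 TPM), of the same core, had the highest levels and were within 2-fold. MEMO1 overlaps DPY30 on the same strand and was listed at 5.88 and 3.58 TPM.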

How the data were processed

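RNA-seq of poly(A) RNA was performed once for PLC-8024-CTR and once for PLC-8024-GDF1 cells. Per the labels and the study's methods, the authors trimmed reads with Trimmomatic 0.36, aligned them to hg19 with HISAT2 2.1.0, quantified them with StringTie 1.3.3b and deposited TPM per gene, with 0.0001 in place of 0. The deposited column is headed as a mean TPM, and over what is not given in the sources used here. The DEGseq comparison of the methods was not repeated, since no counts were used. The sums were 999990 and 999995 TPM, so depth and counting error are unknown.

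Log2 changes used a pseudocount of 1 and genes that reached 1 TPM in a library. Positions, gene types, overlaps and GC content came from GENCODE v44 on GRCh37, which held 55726 of 58174 identifiers. Rescaling multiplied PLC-8024-GDF1 by 1.15, so that the median log2 ratio over genes with at least 5 TPM was 0. The GC trend was a lowess with a span of 0.3. Alternatives were a pseudocount of 0.1, the plain ratio, the rescaling, the GC trend, a total without GDF1, CERS1 and mitochondrial genes, other TPM limits (5, none), protein-coding genes only, overlapping genes left out and, for paralog shares, a pseudocount of 1. Scripts (Python 3.11.15, pandas 2.3.3, statsmodels 0.14.6) were tested on simulated data.

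The 9 genes and the lists were chosen with earlier results of these data known. Named genes were the 9, GDF1, CERS1, list genes past 2-fold, the 2 most abundant of each list, paralogs and overlapping genes. Others named were chosen after their values were seen (SERPINA1, KRT8, KRT18, AFP, PTPRC, VWF, CD68, PECAM1, CTBP2, ZNF217, SNAI2, PRDM1, SNAP25, USP28, USP38, the KDM5 genes). The values of 1 paralog are not reported here.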

Additional observations from a re-analysis of the deposited data

How the results depend on the processing

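No paired analysis was possible because a single library was made per condition, and none was left out.

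With TPM rescaled to a median log2 ratio of 0, the log2 changes of KDM1A (0.065), PHF21A (0.062), HMG20B (0.038), CTBP1 (0.0046) and KDM5A (0.013) turned positive. ZMYM2 (-0.97) was then no longer past 2-fold. With the GC trend removed KDM1A (0.14), KDM1B (0.077), PHF21A (0.065), DPY30 (0.18) and KDM5A (0.21) turned positive, CPLX1 (-0.25) turned negative and ZMYM2 was at -0.65. CPLX1 also turned to -0.0041 with the total taken without GDF1, CERS1 and mitochondrial genes. The cause was not tested. With the plain ratio GFI1 (-1.08) passed 2-fold.

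Of the 9 genes, 1 was past 2-fold as reported, 2 with the plain ratio and 0 with rescaled TPM, with the GC trend removed or with at least 5 TPM, a limit that 4 of the 9 reached. Of the other subunits and paralogs, 1 was past 2-fold as reported, 3 with a pseudocount of 0.1 or the plain ratio and 2 with the alternative total. Of the recruiters, 2 were past 2-fold as reported and 1 with rescaled TPM, with the GC trend removed or with at least 5 TPM. Of the NuRD subunits, 2 were past 2-fold as reported and 1 (CHD4) with rescaled TPM or the GC trend removed. Of the stability genes and of the neuronal targets, 0 were past 2-fold as reported and 2 each with a pseudocount of 0.1 or the plain ratio. Of the H3K4 methyltransferase genes, 1 was past 2-fold as reported and 0 with the GC trend removed or with at least 5 TPM. Apart from the rise of CHD4, all of these calls were falls. Over all genes 2154 were past 2-fold as reported, 3547 with the plain ratio and 3482 at a pseudocount of 0.1. Of all genes 9.61% fell and 4.82% rose as reported, 15.5% and 7.82% with a pseudocount of 0.1, and 16.1% and 7.88% with the plain ratio. With rescaled TPM these shares were 6.75% and 7.01%, and with the GC trend removed 6.05% and 6.29%. With the alternative total they were 10.4% and 5.22%, and with at least 5 TPM 10.8% and 4.89%. The share of rising genes among them, 33.4% as reported, was 51.0% with rescaled TPM and 51.0% with the GC trend removed. Low TPM limits GFI1, RCOR2 and KDM1B most.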
